A study of Mus musculus with 9 samples.

Results

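The genes described here are 8 members of the AP-1 family of transcription factors: Fos, Fosb, Fosl2, Jun, Junb, Jund, Batf and Atf3. They were taken from a list of symbols, and no measured value chose them. Of the 8, 7 were found among the 14004 genes of the deposited table, and Atf3 was not analysed here. A filter that kept genes with a normalised read count of at least 1 in at least 3 libraries left 6 members for testing, because Fosb reached that value in fewer libraries.

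RNA-seq was carried out on iNKT1 cells, the T-bet-expressing subset of invariant natural killer T cells, isolated from thymus, liver or spleen. Each tissue had 3 libraries, and all 9, from C57BL/6 animals, carried the genotype Tbx21CreTg;Rosa26-LSL-YFP+/+ with no treatment, so no control without the transgene was compared. Cre from Tbx21 switches the YFP reporter on for good, so YFP can also mark a cell that expressed Tbx21 only in the past. The labels give no age and do not say how cells were sorted, how long the tissues were handled or whether the replicates came from separate animals. The p-values therefore measure only the spread between these libraries, which may in part be technical. The comparisons ask how these cells differ between the thymus and each of the other tissues, and between liver and spleen.

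AP-1 is a set of dimers of basic leucine zipper proteins that bind a short palindromic DNA element. Fos proteins need a Jun partner to bind, Jun proteins can also pair with each other, and BATF pairs with Jun proteins and binds composite elements together with IRF4 or IRF8 in lymphocytes. Fos, Fosb, Jun, Junb and Atf3 are classical immediate early genes, whose transcripts rise soon after receptor stimulation, and also after tissue dissociation or warming, and decay fast, while Fosl2, Jund and Batf transcripts are in general more lasting.

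The low values of each library lay on a ladder of equal steps, from which the reads behind each value were recovered. The recovered reads summed to 18506598 to 39568081 per library, except 3875734 in liver replicate 3. In that library 1 read was worth 6.04 units of normalised read count. These sums are estimates, because the steps were fitted on values of 1 to 20 reads and carried over to higher values. The number of genes with a read was 10476, 11180 and 12222 in thymus replicates 1, 2 and 3 and 11781 to 13038 in the other 6 libraries. All 14 listed T cell and iNKT1 markers had reads in all 9 libraries, with a summed level of 125760 to 200950. Marker lists of other cell types were also measured. Hepatocyte markers summed to 110 to 868.0 in thymus, 1390 to 1717 in liver and 0.525 to 40.5 in spleen. Alb made up most of that sum in liver, with 1172 to 1588, and lay at 0.0213 to 268 in thymus and at 0 to 10.4 in spleen. Trf went the other way, at 110 to 598 in thymus, 7.69 to 43.5 in liver and 0.525 to 40.5 in spleen. The sum of the B cell markers, mostly Ighm, was 3157 to 5653 in thymus, 5471 to 8097 in liver and 5325 to 13086 in spleen, and Ms4a1 lay at 0.0443 or below in the 3 thymus libraries, at 0 to 423 in liver and at 0 to 514 in spleen. Cd22, of the same list, lay at 0.0212 to 303 in thymus, 0.874 to 12.2 in liver and 65.3 to 1962.5 in spleen. The myeloid sum was 3305 to 7512 in thymus, 726 to 3657 in liver and 519 to 5207 in spleen, and Lyz2 had at most 3 reads in each thymus library. Fcer1g gave most of the thymus sum, with 3191 to 6967, but 189 to 1960 in liver and 237 to 1079 in spleen, where Csf1r reached 1297 and Cd68 1188 in their highest library. Erythroid markers summed to 2.45 to 606 over the 9 libraries. The immature thymocyte markers summed to 1921 to 7399 in thymus, 6607 to 9078 in liver and 5471 to 10081 in spleen. Of these sums Cd4 gave 985 to 7393, 6440 to 7921 and 5468 to 10054, and Rag1 reached 486 in 1 thymus library. Cd8a was highest in liver, at 85.8 to 1116.5, against 0.0212 to 257 in thymus and 0 in spleen. The share of these cells in the AP-1 values was not tested, and in bulk libraries fewer cells of a type cannot be told apart from less RNA per cell.

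**Figure D1:**
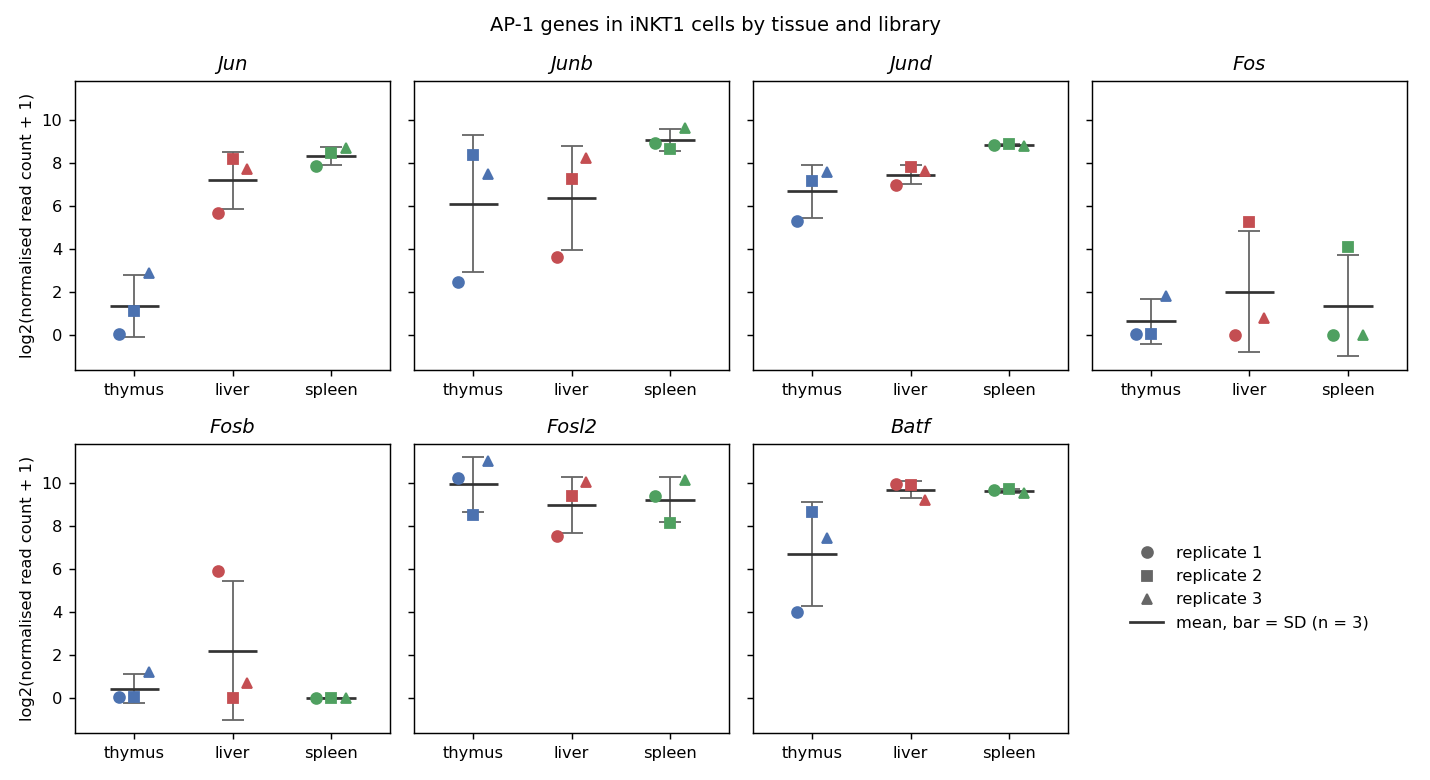
Normalised read counts of the 7 measured AP-1 genes, as log2(value + 1), in each of the 9 libraries by tissue, with the mean and SD of 3 libraries. Jun lay at 6.32 or below in the thymus libraries and at 50.4 or above in the other 6, while Fos and Fosb lay at or near 0 in most libraries of every tissue.

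Jun was close to undetected in thymic iNKT1 cells and well represented in those of the liver and spleen. Batf was also lower in all 3 thymus libraries than in the other 6. Junb and Jund were lower in both thymus and liver than in spleen, Fosl2 overlapped among all tissues, and Fos and Fosb were each carried by single libraries. After adjustment over all 13309 genes with limma-trend, 0 of the 6 tested members passed 0.05 in any of the 3 pairwise comparisons or in the test of any tissue difference. Few genes did so at all, 0.323% in liver against thymus, 0.398% in spleen against thymus, 0.015% in liver against spleen and 0.346% for any tissue difference. At an unadjusted p under 0.05 the members were 2 of 6 in liver against thymus and 2 of 6 in spleen against thymus, Jun and Batf in both, and 0 in liver against spleen, where 11.6%, 11.7% and 3.03% of all genes did so. For any tissue difference 2 of 6 had an unadjusted p under 0.05, again Jun and Batf, as did 9.95% of all genes. Both thymus comparisons share the same thymus libraries. edgeR's quasi-likelihood test on the recovered reads also called 0 members, against 0.165%, 0.278% and 0.015% of genes in the 3 comparisons and 0.225% for any tissue difference. DESeq2 on the same reads called 1, Jun, in liver against thymus and in spleen against thymus and 0 in liver against spleen, where it called 3.71%, 4.11% and 0.176% of genes. It also called Jun for any tissue difference (adjusted p = 0.00123), with 2.9% of genes.

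By the ranges of the libraries, 2 of the 6 members were higher in liver than in thymus without overlap (Jun and Batf), beside 9.61% of all tested genes, and 0 were lower (5.73% of genes). In spleen 4 of the 6 were higher than in thymus without overlap (Jun, Junb, Jund and Batf), beside 9.29% of genes, and 0 were lower (6.03%). In liver 2 of the 6, Junb and Jund, were lower than in spleen without overlap, beside 6.77% of genes, and 0 were higher (5.97%). The median log2 fold change of the 6 members was 1.09 in liver against thymus, 2.56 in spleen against thymus and −0.68 in liver against spleen. The median of all genes was 0.29, 0.33 and −0.02, against 0.43, 0.48 and −0.04 with libraries scaled to equal totals and −0.02, 0.03 and −0.05 in edgeR on the recovered reads.

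**Figure D2:**
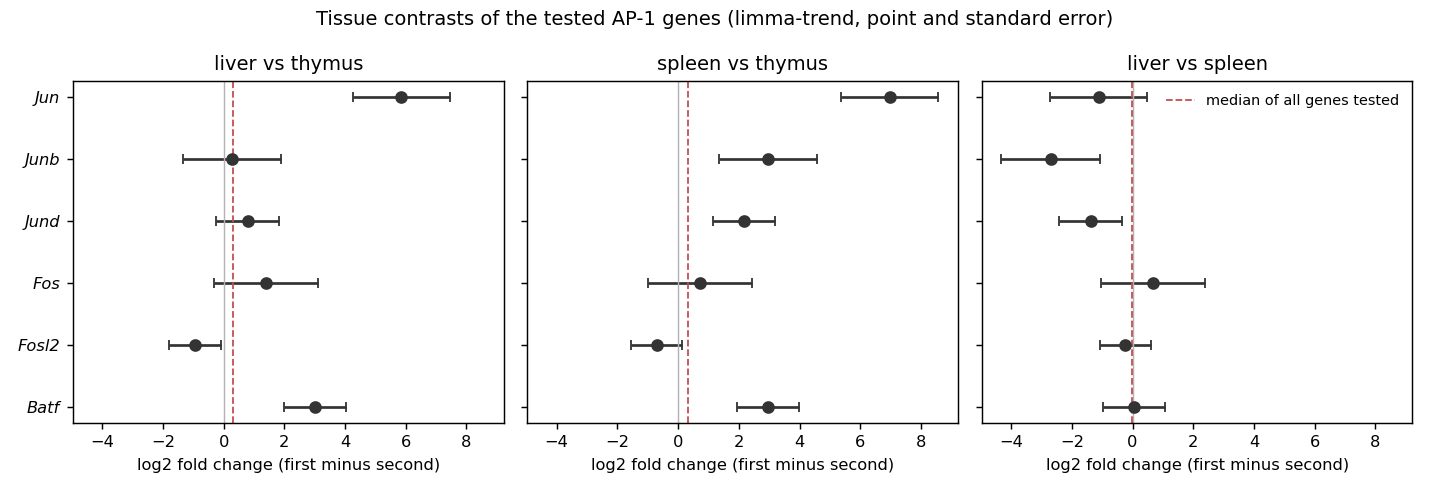
Log2 fold changes of the 6 tested AP-1 genes in the 3 tissue comparisons (limma-trend on log2(value + 1)), as points with standard errors, and the median of all tested genes as a dashed line. Jun stands at 5.85 and 6.97 in the comparisons with thymus, Batf at 3.00 and 2.95, and all points of liver against spleen lie between −2.70 and 0.66.

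The Jun proteins form the core of most AP-1 dimers. Jun itself (ENSMUSG00000052684) lies on the minus strand of chromosome 4 at 95049034-95052222 (GRCm38, GENCODE M21) as a single exon of 3189 bases. Its promoter and those of Junb, Batf and Fos are printed here, because Jun, Junb and Batf are among the 4 members whose libraries did not overlap between tissues and Fos is the classical immediate early gene of the set. Jund, the other of the 4, is left out because its start differs between RefSeq and GENCODE. Each is 150 bases on the strand of the gene, ending just before its start in RefSeq (GRCm38.p6), or for Batf before its start in GENCODE, which lies further upstream. All 8 listed genes were matched in RefSeq. Motifs were searched on both strands in the 250 bases before the RefSeq start. They were the AP-1 element TGANTCA, the ATF and CRE type element TGACNTCA, the TATA box TATAAA and the CArG box bound by SRF, searched by its consensus. No motif overlapped another in the printed runs, and capitals mark a match.
Jun, chr4:95052223-95052372 (minus strand): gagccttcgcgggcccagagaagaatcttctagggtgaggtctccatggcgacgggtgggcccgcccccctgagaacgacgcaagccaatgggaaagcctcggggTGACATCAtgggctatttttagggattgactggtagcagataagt
Junb, chr8:84978749-84978898 (minus strand): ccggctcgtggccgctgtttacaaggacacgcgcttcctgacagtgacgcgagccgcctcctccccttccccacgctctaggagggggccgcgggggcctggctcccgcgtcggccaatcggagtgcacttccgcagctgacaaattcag
Batf, chr12:85686519-85686668 (plus strand): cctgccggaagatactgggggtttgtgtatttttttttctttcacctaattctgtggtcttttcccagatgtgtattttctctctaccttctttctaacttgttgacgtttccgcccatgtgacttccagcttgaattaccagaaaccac
Fos, chr12:85473740-85473889 (plus strand): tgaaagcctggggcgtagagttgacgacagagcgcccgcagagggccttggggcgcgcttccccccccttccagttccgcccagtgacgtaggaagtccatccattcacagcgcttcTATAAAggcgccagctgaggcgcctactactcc
The Jun run holds TGACATCA, a match to TGACNTCA, at −45 to −38 from the start, a motif present in 7.49% of 32851 promoter windows of 250 bases. The Fos run holds TATAAA at −33 to −28, present in 12.4% of windows. None of the 4 motifs was found in the Junb or Batf runs. TGANTCA, in 6.75% of windows, and the CArG box, in 1.47%, were not found in any of the 4 runs. A match of letters is a description of the sequence and no evidence of binding.

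In the thymus, Jun had 0, 1 and 5 reads in replicates 1, 2 and 3, which is a normalised read count of 0.0212, 1.19 and 6.32. In the liver it stood at 50.4, 288 and 212, from 58, 335 and 35 reads. In the spleen it stood at 227, 349 and 406, from 305, 507 and 676 reads. All 3 thymus libraries lay below all 6 others, and the lowest of these was liver replicate 1. The means were 2.51 ± 3.35 in thymus, 183 ± 121 in liver and 327 ± 91.0 in spleen (SD, n = 3 each). Jun was thus 73.1-fold higher in liver and 130-fold higher in spleen than in thymus by these means. The thymus total was 6 reads, with an exact 95% Poisson interval of 2.20 to 13.1. The ratio per read of depth was thus 80.5 (37.0 to 219) for liver and 162 (74.3 to 441) for spleen. These intervals cover only the counting error of the thymus reads, taken as independent. No molecular identifiers are mentioned, so copies of the same molecule could not be told apart. Of the 6 reads, 5 were in thymus replicate 3, and without that library the ratio per read of depth was 357 (64.2 to 14119) for liver and 718 (129 to 28377) for spleen.

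In limma the log2 fold change of Jun was 5.85 in liver against thymus (SE 1.60, unadjusted p 0.0023, adjusted p = 0.185), which ranked 165 by p among 13309 genes. In spleen against thymus it was 6.97 (SE 1.60, unadjusted p 0.000548, adjusted p = 0.0849), rank 86. Neither passed the threshold, and the difference between liver and spleen was −1.12 (SE 1.60, adjusted p = 1.0). The adjusted p depended on the model. DESeq2 gave 8.61e-05 for liver and 3.07e-06 for spleen against thymus, with log2 fold changes of 6.22 and 7.05, while edgeR gave 0.279 and 0.199. Without thymus replicate 3, the thymus library with most Jun reads, limma gave 0.0625 for liver and 0.0407 for spleen, where 1.15% and 1.07% of all genes then passed. Over the 24 alternatives the log2 fold change stayed between 3.94 and 6.62 for liver and between 5.0 and 7.74 for spleen. Junos, a noncoding gene antisense to Jun and overlapping its exon, had 0 reads in the 3 thymus libraries and in spleen replicate 2 and 13.5 to 36.4 units in the other 5. Counting by strand is not stated, so reads of Jun and Junos cannot be told apart where they overlap.

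Junb encodes a Jun protein that can also restrain Jun itself. It lies on the minus strand of chromosome 8 at 84974484-84978718. In thymus it measured 4.51, 328 and 176, so that replicate 1 stood far below the other two. In liver it measured 11.3, 152 and 297, again with replicate 1 the lowest. In spleen it measured 487, 398 and 791, all above the 6 other libraries. The highest thymus library was 72.9 times the lowest, against 26.3 times in liver and 1.99 times in spleen. The log2 fold change was 2.97 in spleen against thymus (SE 1.62, adjusted p = 0.490 by limma), 0.27 in liver against thymus (SE 1.62, adjusted p = 0.967) and −2.70 in liver against spleen (SE 1.62, adjusted p = 1.0). Without thymus replicate 1, spleen against thymus was 1.15 and liver against thymus turned to −1.55, and without liver replicate 1, liver against spleen was −1.33. Over all 24 alternatives these values ran from 1.15 to 4.32, −1.55 to 1.64 and −3.63 to −1.33. Exons of Prdx2, on the opposite strand, overlap those of Junb, and Prdx2 itself ranged from 80.7 to 1501 over the libraries.

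Jund, the Jun member least tied to stimulation, lies on the plus strand of chromosome 8 at 70698949-70700616. It measured 38.1, 140 and 191 in thymus and 124, 222 and 194 in liver. In spleen it measured 455, 472 and 444, and these 3 lay within 1.06-fold of each other. Only the spleen libraries stood apart, above all 6 others, and thymus and liver overlapped. The mean was 457 ± 14.2 in spleen, 123 ± 77.6 in thymus and 180 ± 50.9 in liver (SD, n = 3 each). The log2 fold change was 2.17 in spleen against thymus (SE 1.03, unadjusted p 0.0529, adjusted p = 0.434 by limma), and 1.48 without thymus replicate 1. It was 0.79 in liver against thymus (adjusted p = 0.798), or 0.10 without thymus replicate 1, and −1.38 in liver against spleen (adjusted p = 1.0), neither past the threshold. An antisense gene model, Gm11175, overlaps Jund and was not analysed here.

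The Fos proteins supply the partner that gives Jun dimers their stability. Fos lies on the plus strand of chromosome 12 at 85473890-85477273. It had 0, 0 and 2 reads in thymus, 0, 43 and 0 in liver and 0, 23 and 0 in spleen. A single library per tissue therefore held all its reads. With 0 reads, a level of up to 19.0 in liver replicate 3, and of 1.72 to 3.50 in the other 5 such libraries, could have been missed (3 reads, counting error only). The log2 fold changes of Fos were 1.38 in liver against thymus, 0.72 in spleen against thymus and 0.66 in liver against spleen, with adjusted p of 0.789, 0.908 and 1.0 by limma, and the last became −0.02 without spleen replicate 1 or 3.

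Fosb, another stimulus-induced Fos gene, lies on the minus strand of chromosome 7 at 19302696-19310051. It had 66 reads in liver replicate 1, a value of 57.8, and 1 read in thymus replicate 3. The other 7 libraries had 0 reads, and it was not tested. The liver library with Fosb was not the one with Fos, and it was the one with the lowest Jun and Junb of that tissue.

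Fosl2 encodes Fra-2, a Fos protein with slower kinetics, and lies on the plus strand of chromosome 5 at 32135801-32157842. It was the Fos gene that all 9 libraries expressed. Its values were 1201, 364 and 2053 in thymus, 181, 663 and 1042 in liver and 666, 273 and 1126 in spleen. The ranges of the tissues overlapped, and the spread within each was 4.12-fold to 5.76-fold. The means were 1206 ± 844, 628 ± 432 and 688 ± 427 (SD, n = 3 each). The log2 fold change was −0.95 in liver against thymus (SE 0.84, adjusted p = 0.694 by limma), −0.71 in spleen against thymus (SE 0.84, adjusted p = 0.778) and −0.24 in liver against spleen (SE 0.84, adjusted p = 1.0), so no tissue difference was shown. In liver against thymus it was −0.22 without liver replicate 1 and −1.65 without thymus replicate 2, and in spleen against thymus −1.41 without thymus replicate 2. Liver against spleen turned to 0.49 without liver replicate 1 and to 0.23 without spleen replicate 3.

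Batf encodes a factor without a transactivation domain of its own, which acts with Jun proteins and IRF4 in T cells, and lies on the plus strand of chromosome 12 at 85686669-85709087. It measured 14.6, 390 and 169 in thymus, with 13, 337 and 135 reads. In liver it measured 963, 934 and 588, and in spleen 797, 820 and 736. The thymus libraries were all below the other 6, and liver and spleen overlapped. The means were 191 ± 189 in thymus, 828 ± 209 in liver and 784 ± 43.2 in spleen (SD, n = 3 each), so that Batf was 4.33-fold higher in liver and 4.10-fold higher in spleen than in thymus. The log2 fold change was 3.00 in liver against thymus (SE 1.02, unadjusted p 0.00978, adjusted p = 0.276 by limma) and 2.95 in spleen against thymus (SE 1.02, unadjusted p 0.0107, adjusted p = 0.269), and neither passed. Both moved with the thymus libraries: they were 1.65 and 1.61 without replicate 1, the lowest, and 3.97 and 3.93 without replicate 2, the highest. In edgeR on the recovered reads they were 2.14 and 2.07. Liver and spleen differed by 0.05 (SE 1.02).

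Levels can be compared between genes only per length, so each value was divided by the kilobases of the exons of its gene. These were joined over all its transcripts (1406 bases for Batf and 9680 for Fosl2), which sets the weight of each gene. On that scale the 7 members summed to 159, 542 and 526 in thymus, 808, 1038 and 838 in liver and 1191, 1184 and 1377 in spleen. The 3 tissues did not overlap in this sum, whose means were 409 ± 217, 895 ± 125 and 1251 ± 110 (SD, n = 3 each). The sum was not tested, and it includes the members already described as not overlapping between tissues. Batf was the highest member per kilobase in 7 of the 9 libraries, and Fosl2 in thymus replicates 1 and 3. The share of Batf in the sum was 6.52%, 51.2% and 22.9% in thymus, 84.8%, 64% and 49.9% in liver and 47.6%, 49.3% and 38.0% in spleen. The share of the Fos genes was 77.9%, 6.95% and 40.5% in thymus, where it came almost wholly from Fosl2, and 2.95% to 12.9% in the liver and spleen libraries. The share of the 3 Jun genes was 46.6%, 47.8% and 53.5% in spleen, above the 11.7% to 41.9% of the 6 other libraries. In the order of mean level per kilobase, spleen ran Batf (558 ± 30.8), Jund (274 ± 8.52), Junb (243 ± 89.5), Jun (103 ± 28.5) and Fosl2 (71.1 ± 44.1). Jund and Junb, and likewise Jun and Fosl2, differed by less than the larger SD of the pair. Within each spleen library, however, Jun was above Fosl2 (71.3 against 68.8, 109 against 28.2 and 127 against 116). Liver ran Batf (589 ± 148), Jund (108 ± 30.5), Junb (66.7 ± 62.1), Fosl2 (64.9 ± 44.6) and Jun (57.5 ± 38.0), of which only Batf stood beyond the spread of the next. In thymus Batf (136 ± 134), Fosl2 (125 ± 87.2), Jund (73.7 ± 46.5) and Junb (73.7 ± 70.4) lay within their spread, and Jun (0.787 ± 1.05) was at the foot with Fos (0.370 ± 0.624) and Fosb (0.0722 ± 0.119).

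**Figure D3:**
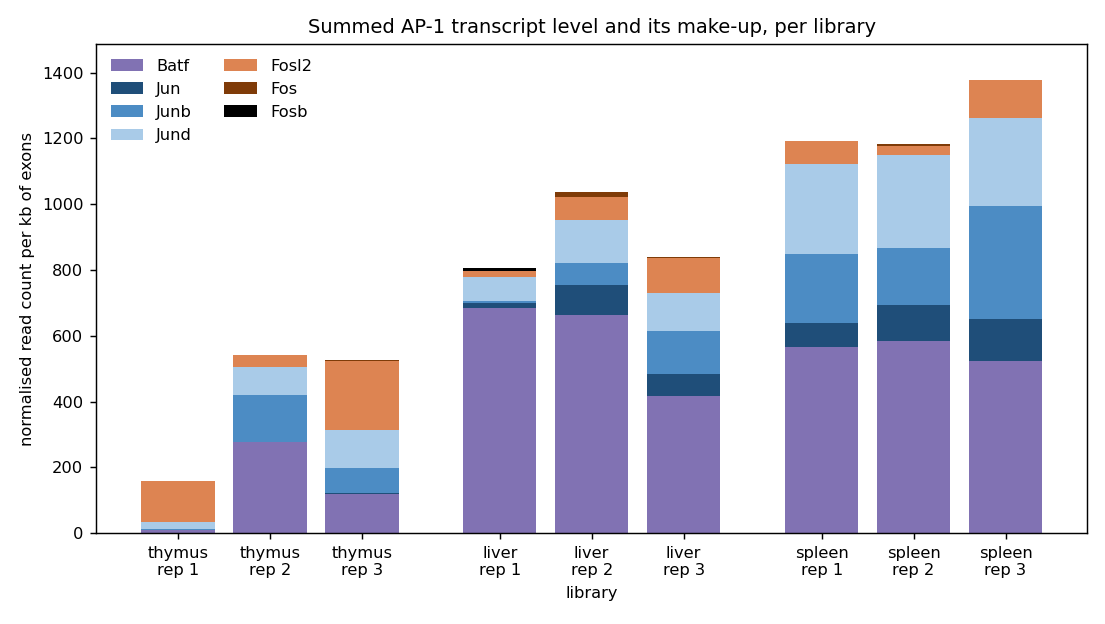
Normalised read count per kilobase of exons, summed over the AP-1 genes and stacked by gene, in each of the 9 libraries. The spleen sums of 1184 to 1377 are the highest and the thymus sums of 159 to 542 the lowest, and Batf gives the largest segment in 7 libraries.

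Spread among replicates of a tissue was taken as the SD of log2(value + 1) over the 3 libraries, as a description of how evenly the genes were measured. The median SD of the 6 members was 1.35 in thymus, where that of all genes was 1.34. In liver it was 1.32 against 0.761, and in spleen 0.470 against 0.766. By these medians, the AP-1 genes varied like other genes in the thymus, more in the liver and less in the spleen. This was not tested, and the genes compared were not matched to the members by level. Single members differed from this. In liver Fos, Junb, Jun and Fosl2 lay above the median of all genes, and Jund (0.44) and Batf (0.40) below it. In spleen Fos and Fosl2 (1.03) lay above it, and Junb, Jun, Batf and Jund below it. Junb was the least even tested member in thymus, with an SD of 3.18, above that of 81.8% of genes. Fos was the least even in liver (2.83, above 90.0% of genes) and spleen (2.35, above 85.1%), where its reads were 0, 43 and 0 and 0, 23 and 0. Jund (0.04) and Batf (0.08) in spleen were steadier than nearly all genes, with only 1.07% and 2.21% of genes below them. In thymus replicate 1, Jun, Junb, Jund and Batf were each the lowest of the 9 libraries, while Fosl2 was the second highest of the 9. That library also had the fewest genes with a read.

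**Figure D4:**
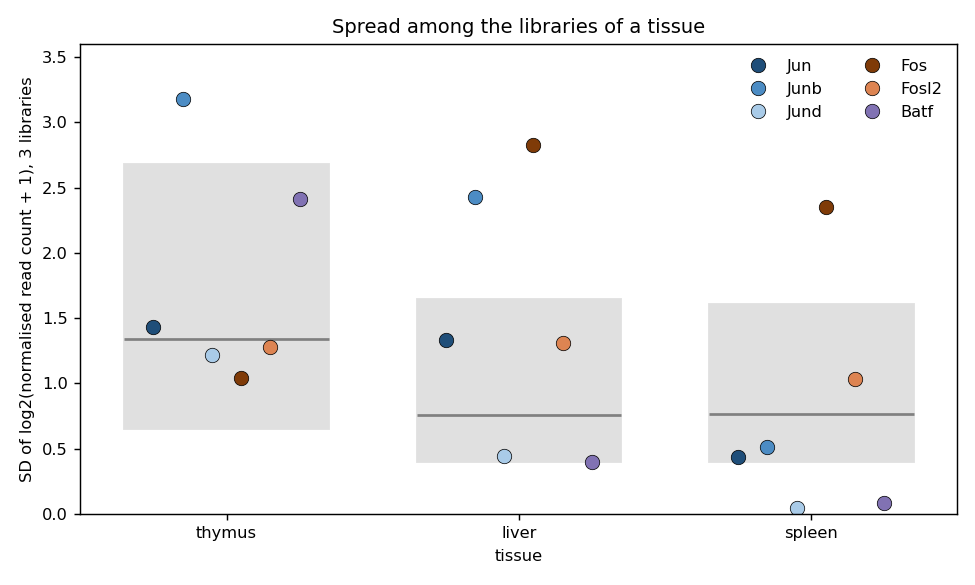
SD of log2(value + 1) among the 3 libraries of each tissue for the 6 tested AP-1 genes (points), with the median (line) and the middle part of the distribution from its lower to its upper quartile (box) of all tested genes. Jund and Batf lie at 0.04 and 0.08 in spleen, and Junb lies at 3.18 in thymus, above the box.

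Other genes that answer stimulation or handling were measured beside the members. Of 25 listed immediate early genes outside AP-1, 24 were tested, and 1, Nr4a3, an orphan nuclear receptor induced by T cell receptor signals, passed in limma. Nr4a3 measured 88.6, 32.4 and 15.1 in thymus, 833, 913 and 897 in liver and 6347, 1765 and 1717 in spleen. It rose by 4.60 on the log2 scale in liver against thymus (adjusted p = 0.0267) and by 6.20 in spleen against thymus (adjusted p = 0.00334), past the threshold in 16 and 22 of 24 alternatives. The call was lost in liver against thymus without any 1 of the liver or spleen libraries (adjusted p 0.0663 to 0.183) and in spleen against thymus without spleen replicate 1 (0.0599). In liver against thymus the call was also lost by limma with only the samples compared (0.288) and with only the libraries numbered 1 and 3 (0.308). At an unadjusted p under 0.05 the list had 9 of 24 genes in liver against thymus, 8 in spleen against thymus and 3 in liver against spleen, in either direction, beside 11.6%, 11.7% and 3.03% of all genes. The summed level of the 24 was 37548 to 49550 in thymus, 31426 to 35530 in liver and 32882 to 46799 in spleen. The median log2 fold change of the list was −0.11 in liver against thymus and 0.09 in spleen against thymus, below those of all genes. Its median SD was 1.35 in thymus, 0.707 in liver and 0.681 in spleen.

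Within that list, 4 genes were picked after their values were seen, because they stood like Jun or unlike it. Socs3, a brake on cytokine signalling, had 0, 0 and 4 reads in thymus and 197 to 569 units in liver and 219 to 406 in spleen (adjusted p = 0.063 and 0.0584 by limma against thymus). Nr4a1, which encodes Nur77, had 0, 0 and 11 reads in thymus, 79.9 to 250.5 units in liver and 281 to 884 in spleen (adjusted p = 0.198 and 0.0507). Thymic libraries thus held next to no Jun, Socs3 or Nr4a1. Egr1, an immediate early zinc finger factor, was present in all of them, at 1660, 1236 and 2680 in thymus, 1990 to 3428 in liver and 913 to 4509 in spleen. Dusp1, a MAP kinase phosphatase, measured 2286, 250 and 2011 in thymus, 92.2 to 792 in liver and 180 to 836 in spleen, so that 2 of the 3 thymus libraries were the highest of all 9.

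**Figure D5:**
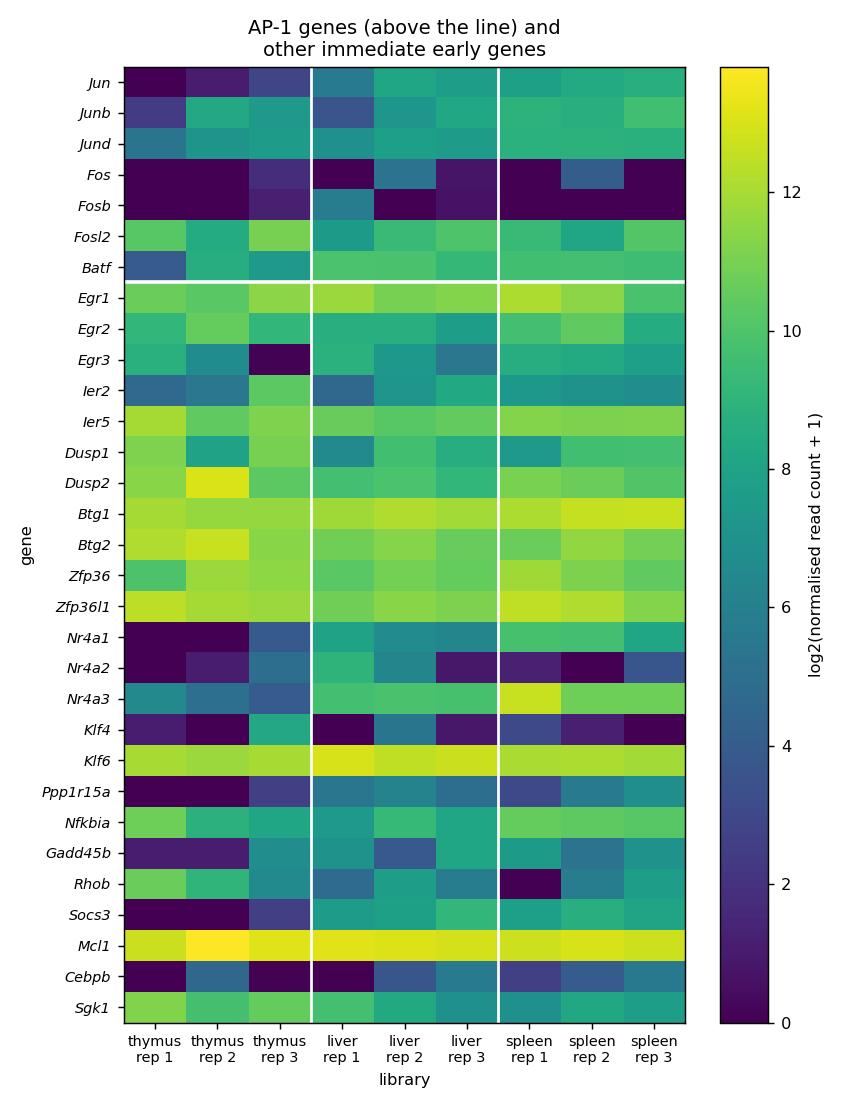
Heat map of log2(normalised read count + 1) in each of the 9 libraries for the 7 measured AP-1 genes, above the white line, and the 24 other immediate early genes, below it. Jun, Nr4a1 and Socs3 are dark in the thymus columns, where Egr1 stays at 1236 or above.

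Of 12 heat shock genes, 11 were tested and 0 passed in limma in any comparison. At an unadjusted p under 0.05 were 0 in liver against thymus, 1 in spleen against thymus and 0 in liver against spleen. Over all genes these shares were 11.6%, 11.7% and 3.03%. The heat shock genes with the highest means were the chaperones Hsp90ab1, Hspa5 and Hspa8. Of the inducible pair Hspa1a and Hspa1b, near-identical copies whose reads may be split between them, Hspa1a had reads in 3 libraries and reached 16.7. Hspa1b had reads in 6 and reached 62.6 in thymus, 13.2 in liver and 110 in spleen. The median SD of the list was 0.389 in thymus, 0.293 in liver and 0.379 in spleen, against 1.34, 0.761 and 0.766 over all genes. Whether handling contributed to the AP-1 values was not tested.

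Of the genes that pass signals to AP-1, 26 MAP kinase and SRF pathway genes were tested and 0 passed, with Elk4 and Map3k1 among the highest in mean, while 2, 1 and 0 had an unadjusted p under 0.05. Of 29 other basic leucine zipper genes, 23 were tested and 0 passed, with Creb1, Atf2 and Maf the highest in mean. In this list 2, 2 and 0 had an unadjusted p under 0.05 by limma. Over all genes the shares in the pairwise comparisons were 11.6%, 11.7% and 3.03%. Jdp2, which dimerises with Jun, was 3.38 ± 5.81 in thymus, 120 ± 94.0 in liver and 22.9 ± 35.6 in spleen (SD, n = 3 each), with an adjusted p of 0.286 in liver against thymus by limma, and is named after its values were seen.

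Of 13 partners of AP-1 in T cells, 1 passed, Irf4, whose product binds DNA together with BATF and Jun proteins. An unadjusted p under 0.05 by limma was found for 4, 5 and 2 of the 13 in the 3 comparisons. Over all genes these shares were 11.6%, 11.7% and 3.03%, and 0.323%, 0.398% and 0.015% passed. Irf4 measured 0.0213, 1.18 and 127 in thymus, 2578, 887 and 1784 in liver and 3138, 1643 and 1177 in spleen. All 6 liver and spleen libraries were above the thymus libraries, of which replicate 3 stood alone. Irf4 rose by 7.93 on the log2 scale in liver against thymus (adjusted p = 0.0261 by limma) and by 8.12 in spleen against thymus (adjusted p = 0.0195). It passed in 13 and 15 of 24 alternatives, over which the log2 fold change ran from 5.37 to 10.06 and from 5.54 to 10.26 (both highest without thymus replicate 3). In edgeR on the recovered reads it was 5.37 and 5.56 and did not pass (adjusted p = 0.237 and 0.207). The call was also lost in liver against thymus without thymus replicate 2 or any 1 of the liver or spleen libraries (adjusted p 0.0506 to 0.195), and in spleen against thymus without liver replicate 1 or 3 or any 1 of the spleen libraries (0.0503 to 0.157). The NFAT genes Nfatc1, Nfatc2 and Nfatc3, whose products bind with AP-1 at cytokine promoters, had log2 fold changes of −0.12, −0.05 and 0.01 in liver against thymus and −0.20, −0.17 and 0.16 in spleen against thymus, none past the threshold.

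Of 17 genes with known AP-1 sites, 14 were tested and 2 passed in a comparison, and 4, 4 and 2 had an unadjusted p under 0.05. Among all genes 11.6%, 11.7% and 3.03% had such a p by limma, and 0.323%, 0.398% and 0.015% passed. Mmp9, a secreted gelatinase, had 0, 0 and 2 reads in thymus, while it measured 3429, 3033 and 3585 in liver and 592, 1633 and 2051 in spleen. The rise was 11.07 and 9.66 on the log2 scale (adjusted p = 0.0002 and 0.000468 by limma), sizes that depend on the pseudocount, and it passed in 24 and 23 of 24 alternatives. Vim, an intermediate filament, fell by 4.22 on the log2 scale in spleen against thymus (adjusted p = 0.0131), from 8347, 7064 and 5034 to 822, 445 and 124, and passed in 21 of 24 alternatives, but not without spleen replicate 2 (0.0594) or 3 (0.061). The cytokine genes of the list did not pass. Ifng was 1267 in thymus, 1670 in liver and 2207 in spleen by the mean, with adjusted p of 0.532 and 0.460 by limma against thymus, and Csf2 was 9.65, 213 and 211, with adjusted p of 0.384 and 0.255.

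Across the 9 libraries the log2 levels of some members moved together. Pearson's r was 0.86 between Junb and Jund, 0.82 between Jun and Jund, 0.80 between Jun and Batf and 0.78 between Jund and Batf, and Fosl2 and Batf had −0.49. These 9 points share their tissue groups and the low values of thymus replicate 1, and are given as a description. Among 7843 named genes with a mean of at least 100 and a value in every library, the pattern most like Jun was that of Nabp1 (r = 0.98), then Art2b (0.97), which has near-identical copies, and Ndufs6 (0.95). For Batf it was Slc25a23, Plekhf2 and Arhgap18 (each 0.98), and 118 genes had an r above 0.9. For Junb it was Bex3 (0.98), Atp6v0a1 (0.96) and Ccdc124 (0.95), for Jund Zbtb18 (0.95), Lbh (0.93) and Kpna3 (0.93), and for Fosl2 Trappc2 (0.94), Lamp2 (0.94) and Pold1 (0.92), all over the same 9 libraries.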

How the data were processed

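RNA-seq of iNKT1 cells gave 9 libraries, 3 per tissue, grouped by the tissue in the labels. The column name of thymus replicate 2 begins with WTf where the others begin with WT, and the labels do not explain the additional letter. The deposited values are a signal: normalised, non-whole read counts per gene. Per the submitters' processing notes, Trimmomatic 0.33, TopHat2 2.1.0, HTSeq 0.6.1, edgeR and the build mm10 were used; the scaling is not given in the sources used here. Per the labels' protocols, libraries came from an ultralow-input kit and no molecular identifiers are mentioned. Of the column totals, none is a depth, so reads were recovered from the steps between low values; 93.77% of 15737 values of 1 to 20 reads lay within 0.1 read of a whole number, and 74.3% in liver replicate 3. Genes without a read had a value of 0 in 5 libraries, a median of 0.0208 to 0.0427 in thymus and 0.763 in liver replicate 3.

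The test was limma-trend (limma 3.58.1, R 4.3.3) on log2(value + 1), for the 13309 genes whose value reached 1 in 3 samples or more, with all 9 samples in 1 fit. It replaced a test for counts, because the values are not whole. P-values are two-sided with Benjamini-Hochberg adjustment over all genes and a threshold of 0.05; fold changes on this scale are understated for low genes. The procedure was tested on simulated data. edgeR 4.0.16 and DESeq2 1.42.0 were run on the recovered reads as alternatives, beside other scalings, pseudocounts and filters, array weights, a replicate block and each library left out, 24 in all. Symbols matched 13359 of 14004 identifiers. Exon lengths and coordinates came from GENCODE M21 and promoters from RefSeq. Members and lists were chosen with earlier results of these data known. Named are all members, up to 4 genes of a list past the threshold (or, if none, the 3 highest means), and for members with a mean of at least 100 the 3 genes with the most similar pattern; exceptions are marked, and some genes are not reported here.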

Additional observations from a re-analysis of the deposited data

How the results depend on the processing

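The count of AP-1 members past the threshold was 0 in each comparison in limma. It became 1 (Jun) in liver against thymus, spleen against thymus and the test of any tissue difference with DESeq2 on recovered reads, and ranged from 0 to 1 in spleen against thymus when 1 library was left out, the 1 being Jun without thymus replicate 3. The fold changes of Jun, the member called, kept their sign in all 24 alternatives, as did those of Jund. The direction turned for Junb in liver against thymus (−0.15 with edgeR, −0.16 with DESeq2, −0.042 with the replicate block in edgeR, and −1.55 to 1.64 with 1 library left out: −1.55 without thymus replicate 1, −0.18 and −0.66 without liver replicates 2 and 3), for Fos in spleen against thymus (−0.81 with the replicate block in edgeR) and in liver against spleen (−0.018 to 1.67 with 1 library left out, the lowest without spleen replicate 1 or 3), for Fosl2 in liver against spleen (0.16 with array weights, and −0.79 to 0.49 with 1 library left out: 0.49 without liver replicate 1, 0.23 without spleen replicate 3) and for Batf in liver against spleen (−0.025 with only the libraries numbered 1 and 3, and −0.080 to 0.27 with 1 library left out: −0.080 and −0.058 without liver replicates 1 and 2). The cause was not tested. DESeq2 gave no adjusted p for Fos in liver against thymus, in spleen against thymus or for any tissue difference.

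The count over all genes moved more. Against 43, 53, 2 and 46 in liver against thymus, spleen against thymus, liver against spleen and any difference, DESeq2 called 465, 515, 22 and 363, and edgeR called 22, 37, 2 and 30. With only the samples compared, 12, 16 and 6 were called, and with only the libraries numbered 1 and 3, 12, 19, 0 and 16. Array weights called 18 in liver against spleen and 74 for any difference. Leaving out 1 library gave 8 to 151, 9 to 140, 0 to 3 and 18 to 74, the highest in the first, second and last without thymus replicate 3. Whether replicate numbers pair the libraries could not be told from these values. The 9 correlations of deviations between same-numbered libraries were −0.001 to 0.089, and those between differently numbered libraries were −0.087 to 0.048. Not every library correlated best with its own number. With the replicate block 42, 55, 4 and 45 genes were called and 0 members, so the block changed no call of a member. Depth limits Fos and Fosb, at 0 reads in most libraries, and the thymus level of Jun, at 6 reads in all; in liver replicate 3, 3 reads correspond to 19.0 units.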
